A study of Homo sapiens with 6 samples.

Results

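Scavenger receptors are cell-surface and lysosomal membrane proteins of several unrelated structural classes that bind modified lipoproteins and other polyanionic ligands. The genes described here are SCARA3, SCARA5, COLEC12 and MSR1 of class A, SCARB1, SCARB2 and CD36 of class B, OLR1 of class E, and SCARF1 and SCARF2 of class F. Of these 10 genes, 8 have a row in the authors' deposited table of 19589 features, found by NCBI gene ID, and COLEC12 and MSR1 are not analysed here. The family was selected on the log2 fold changes and adjusted p-values of this very comparison, in which SCARA3 ranks 3 by adjusted p over all features of the authors' deposited table. The differences below are therefore a description of these libraries, and no new test on them is reported as evidence.

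RNA sequencing of ribosome-depleted total RNA was done on libraries labelled HepG2, the name of a hepatocellular carcinoma line. Cells had received siRNA directed at HOTAIR, a long non-coding RNA, in the siHOTAIR group, or a negative control siRNA in the siNC group. The labels name 3 libraries per group and give no time after transfection. Only 5 libraries, 3 of siHOTAIR and 2 of siNC, enter the means as deposited, so 1 labelled siNC library is unaccounted for. Nothing in the labels says that libraries came from separate cultures, and the deposited p-values cover no more than library-to-library spread, possibly technical.

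Receptors of class A carry a collagen-like or coiled-coil stalk, those of class B cross the membrane at both ends, OLR1 is a C-type lectin, and those of class F carry epidermal growth factor-like repeats. In the liver, SCARB1 is known as the receptor through which hepatocytes take cholesteryl esters from high-density lipoprotein, whereas many other scavenger receptors are known from macrophages and endothelium.

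Whole reads per library were recovered from the deposited means for each of the 8 listed genes, and a normalized count is such a read count divided by the library's size factor. Size factors were 1.15, 0.934 and 0.888 for the siHOTAIR libraries and 1.19 and 0.893 for the siNC libraries, and values per library below keep this order within each group. HOTAIR had 72, 73 and 53 reads in the siHOTAIR libraries, against 241 and 134 reads in the siNC libraries. The groups did not overlap for the targeted transcript. Of 16 hepatocyte markers 10 were listed. Their summed normalized count was 41.6 to 50.3 in the siHOTAIR libraries and 27.6 to 35.9 in the siNC libraries. Of 3 with an adjusted p, 0 rose and 0 fell in the authors' deposited table, beside 20% and 20.4% of all features. SERPINA1 and FGB had 1 read each over all 5 libraries, and APOA1, APOA2 and TF had 2 each, so these secretory markers of the labelled cell type were close to absent. ALB, AFP, TTR, APOB, FGA and FGG are not analysed here.

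Class A was led by SCARA3, described as a stress-induced protein that protects cells from reactive oxygen species. It had 2944, 2288 and 2174 reads in the siHOTAIR libraries, against 715 and 530 reads in the siNC libraries. As normalized counts these were 2550, 2449 and 2449 in siHOTAIR, against 599 and 594 in siNC. The lowest siHOTAIR library lay 1850 normalized counts above the highest siNC library, while values within a group spanned 101 in siHOTAIR and 4.79 in siNC. SCARA3 averaged 2483 ± 58.3 normalized counts in siHOTAIR (SD, n = 3) and 596 ± 3.39 in siNC (SD, n = 2), a ratio of 4.16. On the log2 scale the authors' deposited table puts SCARA3 at 2.05 (SE 0.0753, adjusted p = 2.26e-159) and calls it up. By log2 fold change SCARA3 ranked 26 from the top among the features with an adjusted p in the authors' deposited table.

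SCARA5, a ferritin receptor, stood on the other side. It had 75, 52 and 61 reads in the siHOTAIR libraries, against 105 and 77 in the siNC libraries. As normalized counts these were 65, 55.7 and 68.7 in siHOTAIR, against 87.9 and 86.3 in siNC. Every siHOTAIR value was under either siNC value, with means of 63.1 ± 6.72 in siHOTAIR (SD, n = 3) and 87.1 ± 1.16 in siNC (SD, n = 2). SCARA5 stands at -0.45 on the log2 scale in the authors' deposited table (SE 0.218, adjusted p = 0.0888) and did not pass the threshold of 0.05. In GENCODE 29 its exons share 163 bases with an antisense gene, AC069113.2, which is not analysed here, and whether reads were counted by strand is unknown. A lack of overlap is common at this depth: 58.3% of the 2905 features with a mean of 20 to 100 showed it. No such share was worked out for means above 100, where HOTAIR, SCARA3, OLR1 and SCARB1 lie. Their lack of overlap is therefore not read as unusual.

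OLR1, the lectin-like receptor for oxidized low-density lipoprotein known from endothelial cells, was the other member that rose. It had 1855, 1370 and 1214 reads in the siHOTAIR libraries, against 1056 and 834 in the siNC libraries. As normalized counts these were 1607, 1467 and 1368 in siHOTAIR, against 884 and 934 in siNC. The groups were 433 normalized counts apart, more than the 239 spanned within siHOTAIR or the 50.3 within siNC. OLR1 averaged 1480 ± 120 normalized counts in siHOTAIR (SD, n = 3) and 909 ± 35.6 in siNC (SD, n = 2). OLR1 rose by 0.70 on the log2 scale in the authors' deposited table (SE 0.0843, adjusted p = 2.1e-15), 1.63-fold and thus short of the 2-fold change that every gene in the authors' own list of differential genes reached.

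Class B held the most abundant member. SCARB1 had 6900, 5476 and 5457 reads in the siHOTAIR libraries, against 8259 and 6426 in the siNC libraries. As normalized counts these were 5977, 5862 and 6147 in siHOTAIR, against 6915 and 7200 in siNC. The siHOTAIR libraries lay at least 767 normalized counts below the siNC libraries, and each group spanned 285. SCARB1 averaged 5996 ± 143 normalized counts in siHOTAIR (SD, n = 3) and 7057 ± 202 in siNC (SD, n = 2), which is 85% of the siNC mean. It fell by 0.23 on the log2 scale in the authors' deposited table (SE 0.0677, adjusted p = 0.00216). That is a small change, inside the 25th to 75th percentile range of all features tested, -0.33 to 0.31.

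SCARB2, an abundant protein of the lysosomal membrane, had 696, 485 and 482 reads in the siHOTAIR libraries, against 714 and 564 in the siNC libraries. Its normalized counts were 603, 519 and 543 in siHOTAIR, against 598 and 632 in siNC. One siHOTAIR library lay between the siNC libraries, so the groups overlapped. In the authors' deposited table SCARB2 was at -0.14 (SE 0.0983, adjusted p = 0.257), which did not pass.

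CD36, a transporter of long-chain fatty acids that also binds oxidized lipoproteins, was close to the limit of detection. It had 8, 6 and 6 reads in the siHOTAIR libraries, against 5 and 3 in the siNC libraries, 28 reads in all. Its normalized counts of 6.93, 6.42 and 6.76 in siHOTAIR lay above the 4.19 and 3.36 in siNC. The log2 fold change of 0.54 in the authors' deposited table (SE 0.565, adjusted p = 0.489) is smaller than its own standard error, so a difference was not detectable at this depth. Among the 2063 features with a mean of 5 to 20, 41.6% had groups that did not overlap.

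Neither receptor of class F passed the threshold. SCARF1, a receptor for acetylated low-density lipoprotein, had 8, 10 and 8 reads in the siHOTAIR libraries, against 2 and 9 in the siNC libraries. The siNC libraries thus lay on either side of all but 1 of the siHOTAIR values, which were 6.93, 10.7 and 9.01 normalized counts, against 1.67 and 10.1 in siNC. The authors' deposited table gives SCARF1 0.46 on the log2 scale (SE 0.542, adjusted p = 0.54). SCARF2, its relative, had 42, 28 and 44 reads in the siHOTAIR libraries, against 57 and 46 in the siNC libraries. As normalized counts these were 36.4, 30 and 49.6 in siHOTAIR, against 47.7 and 51.5 in siNC. The highest siHOTAIR library lay between both siNC values, and the authors' deposited table gives SCARF2 -0.34 on the log2 scale (SE 0.283, adjusted p = 0.355). SCARF2 shares 466 exon bases on the same strand with AC007731.5 in GENCODE 29, so its reads may be split.

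**Figure D1:**
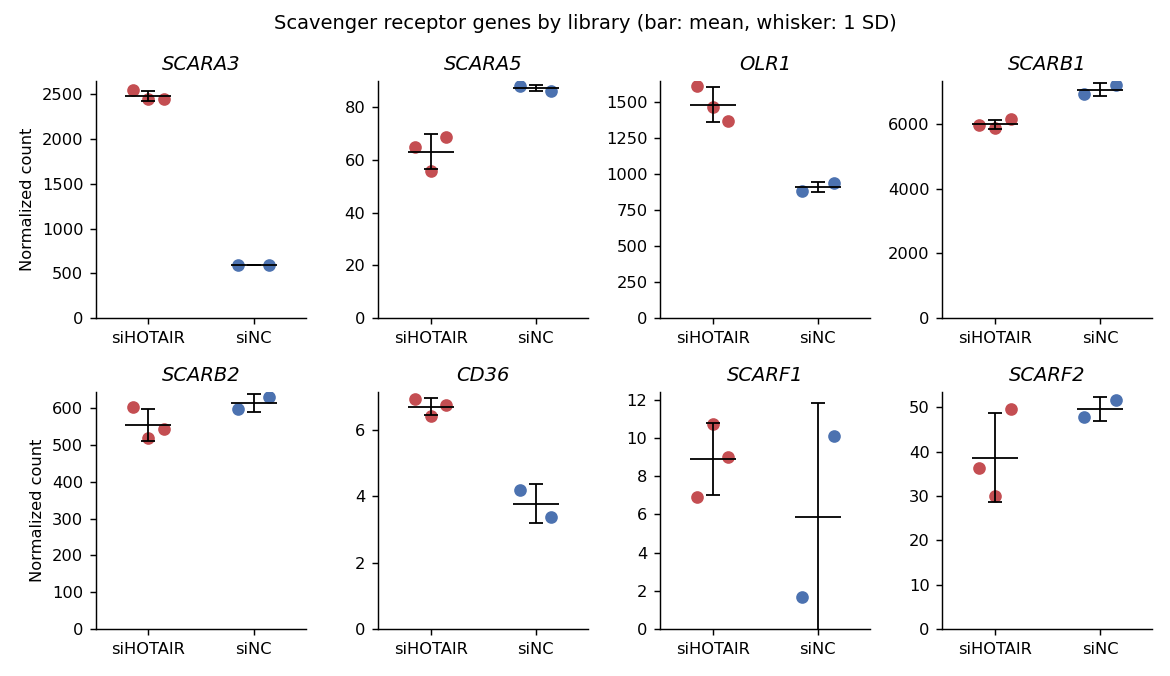
Normalized counts of the 8 listed scavenger receptor genes, 1 point per library, with siHOTAIR libraries in red and siNC libraries in blue; the horizontal bar is the group mean and the whisker 1 SD (n = 3 and n = 2), cut at 0 for SCARF1. SCARA3 sits at 2449 to 2550 in siHOTAIR and at 594 to 599 in siNC, OLR1 is higher and SCARB1 lower in siHOTAIR without overlap, and SCARF1 and CD36 rest on few reads. Lack of overlap was common, seen in 58.3% of features with a mean of 20 to 100, and its share was not worked out for higher means.

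Counted together, 2 of the 8 listed genes rose (SCARA3 and OLR1), 1 fell (SCARB1) and 5 did not pass, by an adjusted p under 0.05 in the authors' deposited table. Over all 14597 features with an adjusted p, 40.4% were called, 20% higher and 20.4% lower in siHOTAIR; since the members were selected on this comparison, nothing is read from their count. The median log2 fold change of the 8 genes was 0.16, beside 0.01 over all features tested in the authors' deposited table. Only SCARA3 carries the authors' call word up, a label that 3.91% of all listed features have in either direction, and 2.73% of features tested had an adjusted p under 0.05 with a rise of at least 2-fold. A 5th to 95th percentile range over all features of -0.92 to 0.86 on the log2 scale held the fold changes of every member except SCARA3.

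**Figure D2:**
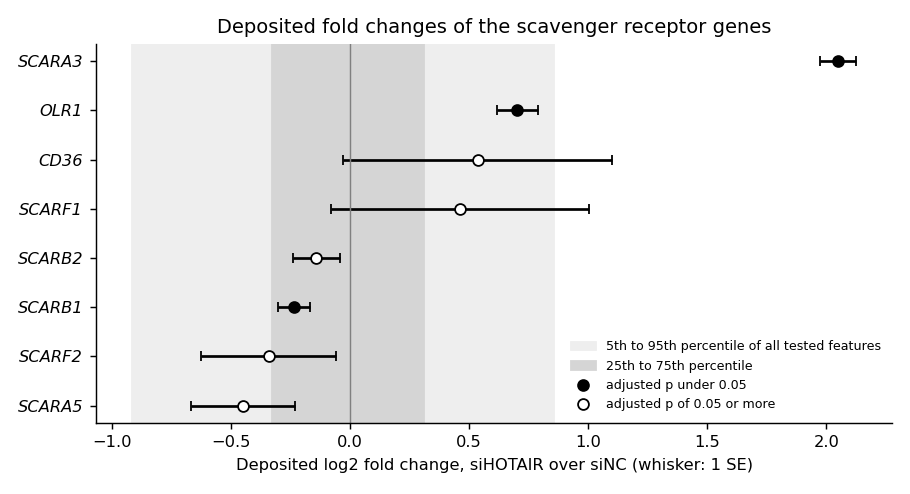
Log2 fold change of siHOTAIR over siNC with 1 standard error for each listed gene, from the authors' deposited table, on grey bands that mark the central ranges of all tested features; filled points have an adjusted p under 0.05. SCARA3 at 2.05 lies outside the bands, and OLR1 at 0.70 and SCARB1 at -0.23 are the other filled points. SCARB1 lies inside the inner band, the 25th to 75th percentile.

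The order of levels was compared per kilobase of coding length. In siHOTAIR the normalized count per kilobase of coding length was 3152 ± 75.4 for SCARB1, 1808 ± 147 for OLR1, 1344 ± 31.6 for SCARA3 and 384 ± 29.8 for SCARB2 (SD, n = 3). In siNC the same quantity was 3710 ± 106 for SCARB1, 1110 ± 43.4 for OLR1, 323 ± 1.84 for SCARA3 and 425 ± 16.7 for SCARB2 (SD, n = 2). SCARA3 therefore ranked above SCARB2 in every siHOTAIR library and below it in both siNC libraries on this scale. Per kilobase of all exon bases SCARA3 stood above SCARB2 in both groups, at 616 against 85.4 in siHOTAIR and 148 against 94.6 in siNC, so the exchange of places depends on the length used. On that scale SCARA3 and OLR1 could not be separated in siHOTAIR, with 608 to 633 and 551 to 647 over the libraries.

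The remaining genes lay far lower. Per kilobase of coding length SCARA5 averaged 41.2 ± 4.39 in siHOTAIR (SD, n = 3) and 56.8 ± 0.755 in siNC (SD, n = 2). SCARF2 averaged 14.8 ± 3.82 in siHOTAIR (SD, n = 3) and 19 ± 1.03 in siNC (SD, n = 2) on the same scale. CD36 and SCARF1 were both under 5 normalized counts per kilobase in every library, and their siNC ranges overlapped. All other neighbours in the order had library ranges that did not overlap in either group per coding length. Per kilobase of all exon bases, SCARA5 and SCARF2 overlapped in siHOTAIR, at 12.6 to 15.5 and 9.23 to 15.3 over the libraries.

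**Figure D3:**
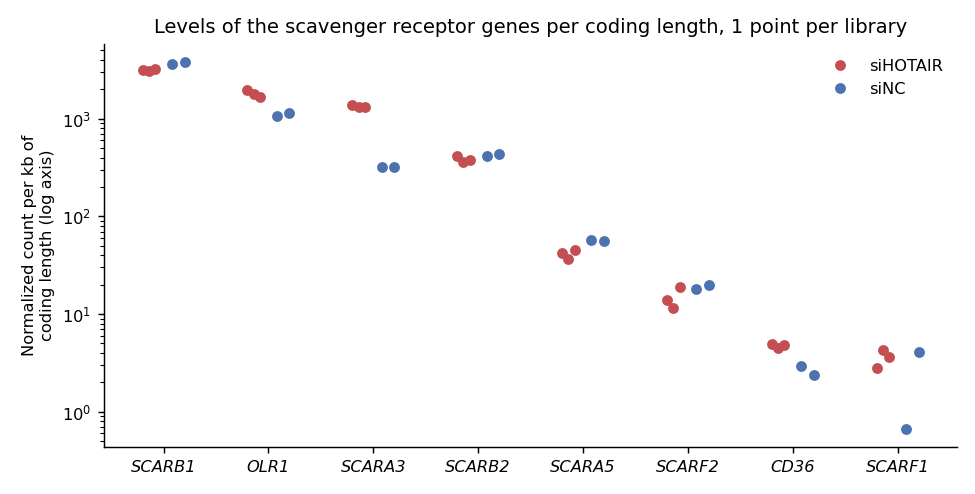
Normalized count per kilobase of coding length on a log axis, 1 point per library, genes ordered by their siHOTAIR mean, siHOTAIR in red left of siNC in blue. SCARB1 is highest in both groups, SCARA3 lies above SCARB2 in siHOTAIR (1344 against 384) and below it in siNC (323 against 425), and CD36 and SCARF1 are lowest.

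The makeup of the family's reads does not depend on size factors. The 8 genes together had 12528, 9715 and 9446 reads in the siHOTAIR libraries, against 10913 and 8489 in the siNC libraries. SCARA3 made up 23.5%, 23.6% and 23% of them in siHOTAIR, against 6.55% and 6.24% in siNC. OLR1 made up 14.8%, 14.1% and 12.9% in siHOTAIR, against 9.68% and 9.82% in siNC. SCARB1 made up 55.1%, 56.4% and 57.8% in siHOTAIR, against 75.7% in both siNC libraries. A share also depends on the reads of the other genes. The normalized mean of SCARB1 in siHOTAIR was 85% of that in siNC, while that of SCARA3 was 4.16 times as high. There were 1.59, 1.67 and 1.79 SCARA3 reads for each OLR1 read in the siHOTAIR libraries, against 0.677 and 0.635 in the siNC libraries, so SCARA3 differed more between the groups than OLR1 did. For each SCARB2 read there were 9.91, 11.3 and 11.3 SCARB1 reads in siHOTAIR, against 11.6 and 11.4 in siNC. The ratio of these class B members was below both siNC values in each siHOTAIR library, and 1 siHOTAIR library lay well under the other 2, which were close to siNC.

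**Figure D4:**
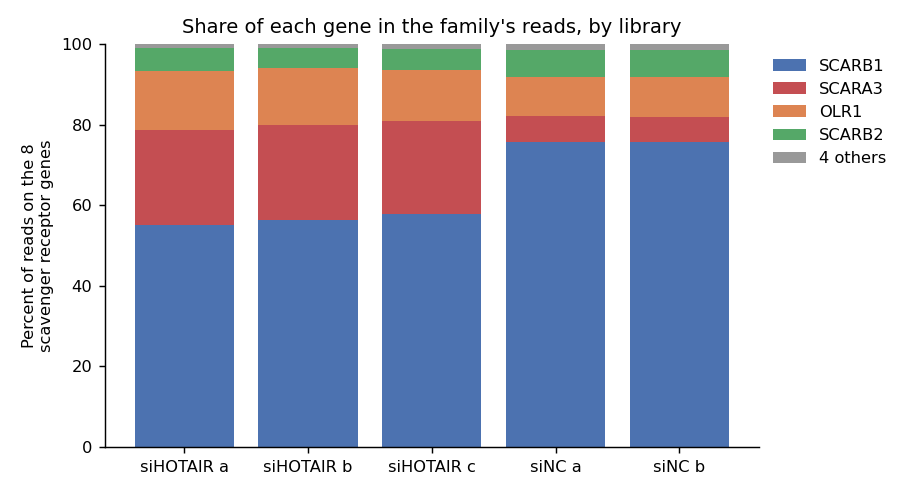
Percent of all reads on the 8 listed scavenger receptor genes that fell on each gene, as 1 stacked bar per library, siHOTAIR libraries (a to c) left of siNC libraries (a and b), each in the order of the text. SCARA3 takes 23% to 23.6% in siHOTAIR and 6.24% to 6.55% in siNC, and SCARB1 takes 55.1% to 57.8% in siHOTAIR and 75.7% in siNC. Each share also depends on the reads of the other genes.

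Several of these receptors are known from cell types other than the labelled one, and markers of such cells were read beside them. In bulk RNA, fewer cells of a type and less RNA per cell cannot be told apart. Of 10 fibroblast and stellate markers 8 were listed, with a summed normalized count of 2184 to 2571 in the siHOTAIR libraries and 1293 to 1301 in the siNC libraries. Most of the sum was 1 gene, COL1A1, whose mean of 1591 stands beside a summed mean of 1942 for the list in the authors' deposited table. COL1A1, a fibrillar collagen, had 1755, 1929 and 2144 normalized counts in siHOTAIR, against 1051 and 1078 in siNC. Of 7 markers with an adjusted p in the authors' deposited table, 3 rose and 0 fell, beside 20% higher and 20.4% lower over all features. On the log2 scale the authors' deposited table has 0.86 for COL1A1, 1.24 for the growth factor receptor gene PDGFRB and 1.77 for DCN. The value of DCN rests on few reads, 26, 15 and 16 in siHOTAIR against 5 and 3 in siNC. Those that did not pass in the authors' deposited table were THY1 at 0.71, COL3A1 at -0.07, ACTA2 at -0.47 and RGS5 at -1.07 (adjusted p = 0.0777).

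Of 10 endothelial markers 8 were listed, with summed normalized counts of 103 to 137 in the siHOTAIR libraries and 84.6 to 91.9 in the siNC libraries. Most of that sum was CDH5, with a mean of 83.2 in the authors' deposited table, whereas PECAM1 had a mean of 4.69 and LYVE1 had 1 read in all. Of 4 endothelial markers with an adjusted p, 1 rose and 0 fell, beside 20% higher and 20.4% lower over all features. VWF was the marker that rose, with 8, 5 and 12 reads in siHOTAIR against 0 and 1 in siNC. Those that did not pass in the authors' deposited table were CDH5 at 0.47 (adjusted p = 0.0675), PECAM1 at -0.16 and ERG at -0.19. Of 14 macrophage markers 7 were listed, with sums of 56.7 to 71 normalized counts in siHOTAIR and 38.5 to 51.5 in siNC. In the authors' deposited table CSF1R was the most abundant of them with a mean of 45.2. It did not pass there, at 0.46 on the log2 scale (adjusted p = 0.195). TYROBP and AIF1 had 1 read each in all. Of 3 macrophage markers with an adjusted p, 0 rose and 0 fell, beside 20% higher and 20.4% lower over all features. The part of any of these markers in the values of SCARA3, OLR1 or CD36 was not tested.

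Among other receptors with a described scavenger function CD68 alone passed the threshold. Of 20 such genes 13 were listed and 9 had an adjusted p; 0 rose and 1 fell by the authors' deposited table, beside 20% and 20.4% of all features. The one that fell was CD68, a lysosomal glycoprotein, with 143, 140 and 117 normalized counts in siHOTAIR against 177 and 197 in siNC. LRP1, a large endocytic receptor with many ligands, was the most abundant of them and stood at 0.02 on the log2 scale of the authors' deposited table (SE 0.0795, adjusted p = 0.849).

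Around SCARB1, 2 of 15 tested genes of lipoprotein and cholesterol transport rose and 2 fell by the authors' deposited table, beside 20% higher and 20.4% lower over all features. SREBF2, a transcription factor that drives cholesterol synthesis genes, rose by 0.26 on the log2 scale in the authors' deposited table. The lipoprotein receptor genes LRP8 (-0.34) and VLDLR (-0.39) fell in the authors' deposited table. The scaffold gene PDZK1, whose protein is known to hold SCARB1 at the hepatocyte membrane in mice, had a mean of 18.6 and 0.25 (adjusted p = 0.668), and ABCA1, APOA1 and APOE had means of 0.596, 0.382 and 8.03 in the authors' deposited table.

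Around CD36, 9 of 19 tested genes in a list of fatty acid uptake and PPAR genes rose and 3 fell in the authors' deposited table, beside 20% higher and 20.4% lower over all features. The list also holds the CD36 ligand gene THBS1 and the Src-family kinase genes FYN and LYN, all among those that rose. The median log2 fold change of the list was 0.37 in the authors' deposited table, beside 0.01 over all features. CAV1, the caveolar coat protein, had 1377, 1265 and 1263 normalized counts in siHOTAIR, against 720 and 723 in siNC. THBS1, a secreted ligand of CD36, had 173, 143 and 145 normalized counts in siHOTAIR, against 83.7 and 67.2 in siNC. The Src-family kinase gene FYN (0.37) and the fatty acid transporter SLC27A4 (0.44) also rose in the authors' deposited table. Of the nuclear receptors for fatty acids, PPARA fell, with 59.8, 65.3 and 66.5 normalized counts in siHOTAIR against 142 and 114 in siNC. PPARD fell too, with 651, 655 and 649 normalized counts in siHOTAIR against 910 and 901 in siNC. PPARG, known to drive CD36 in macrophages, had 305, 305 and 285 normalized counts in siHOTAIR, against 232 and 212 in siNC, and rose by 0.42 in the authors' deposited table.

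Around SCARB2, 6 of 18 tested genes of lysosomal proteins rose and 1 fell by the authors' deposited table, beside 20% higher and 20.4% lower over all features. The cysteine protease gene CTSB had 2783, 2590 and 2518 normalized counts in siHOTAIR, against 1252 and 1483 in siNC. CD63 (0.37), LIPA (0.30) and LAMP1 (0.23) also rose in the authors' deposited table. NPC1, the lysosomal cholesterol exporter, was the member that fell, with 897, 845 and 935 normalized counts in siHOTAIR against 1063 and 1044 in siNC.

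Around SCARA5, 2 of 6 tested genes of ferritin and transferrin uptake rose and 1 fell by the authors' deposited table, beside 20% higher and 20.4% lower over all features. The ferritin light chain gene FTL rose by 0.79 (SE 0.0872, adjusted p = 3.99e-18) and the iron transporter gene SLC11A2 by 0.31 in the authors' deposited table. TFR2, a second transferrin receptor, fell by 0.40, and the ferritin heavy chain gene FTH1 had -0.01 (adjusted p = 0.959) in the authors' deposited table. Ferritin genes have many pseudogenes, so their reads are uncertain. Of 10 genes of the collectins and the lectin pathway, relatives of COLEC12, 1 had an adjusted p, MASP2, with 0.16 (adjusted p = 0.697) in the authors' deposited table.

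**Figure D5:**
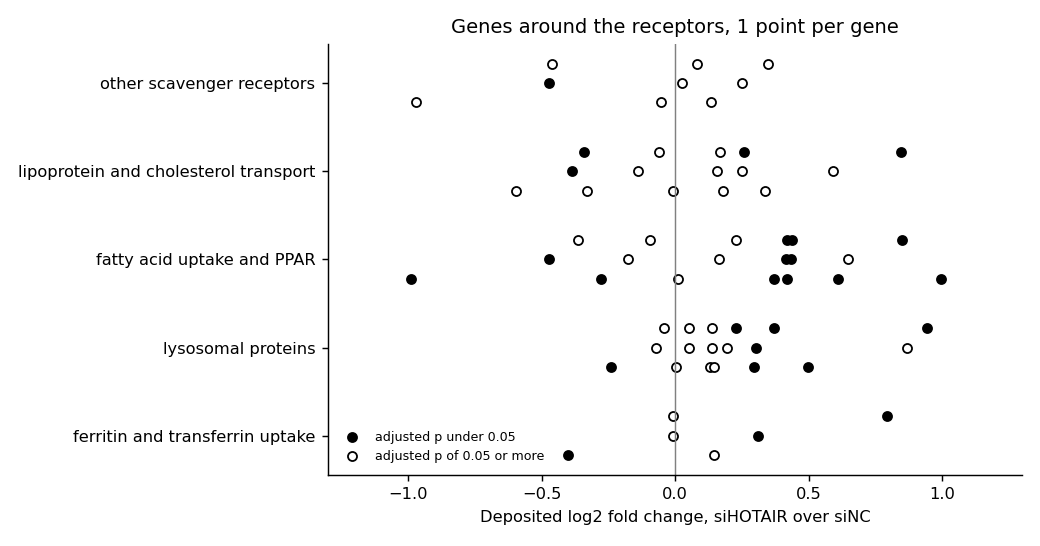
Log2 fold change of siHOTAIR over siNC from the authors' deposited table for the tested genes of 5 lists around the receptors, 1 point per gene, filled where the adjusted p is under 0.05; the vertical position within a row only separates points. In the row of fatty acid uptake and PPAR genes, which also holds THBS1, FYN and LYN, 9 filled points lie right of 0 and 3 left of it. In the row of other scavenger receptors the filled point is CD68 at -0.47.

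Among features with an adjusted p under 0.05 and a minimum mean of 20 in the authors' deposited table, those nearest to SCARA3 in log2 fold change were NFATC2 (2.07), SOBP (2.03), COL11A2 (2.02) and CRB2 (2.02). They are much less abundant: NFATC2, a calcium-regulated transcription factor, had 132, 153 and 151 normalized counts in siHOTAIR against 33.5 and 31.4 in siNC. COL11A2, a fibrillar collagen chain, had 61.5, 64.2 and 65.3 normalized counts in siHOTAIR against 14.2 and 13.4 in siNC. The standard errors of these 4 genes in the authors' deposited table were 0.206 to 0.322, against 0.0753 for SCARA3, which had 8651 reads. The likeness is the difference in 1 fold change over these 5 libraries.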

How the data were processed

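RNA-sequencing libraries of siHOTAIR and siNC were grouped by their titles. The authors used HTSeq 0.6.1, DESeq2 and DESeq and build hg19, per the submitters' processing notes. Aligner, annotation and strand setting: not given in the sources used here. Each deposited mean is a signal value the authors made by dividing counts by size factors and averaging over libraries. The log2 fold changes and standard errors are the authors', as deposited, siHOTAIR over siNC and shrunken toward 0 for features with few reads. The score in the statistic column, the p-values and adjusted p-values, and the call words are likewise the authors', as deposited. An edgeR fit, as planned, was not run, since it needs whole reads of each library across the whole table.

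Single-read features gave 5 steps, the amounts by which a read raises a mean, 1 per library, and the sign of their fold change gave the group. For means of at most 100, each of 10268 features had a single whole-number solution. For larger means the reads also had to return the deposited log2 fold change within 1e-06, using a shrinkage tuned on 60 features with known reads, and each member had a single solution, SCARB1 out of 884 candidates. Which replicate number each library bears is unknown. The method was tested on simulated data.

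Symbols came from RefSeq of GRCh38.p14 and lengths from GENCODE 29; no coordinates are printed, since the build differs. limma 3.58.1 (R 4.3.3) with a mean trend was run as an alternative for features with a mean of 20 to 100, on log2 of the recovered normalized count plus 1. Named genes were the members, HOTAIR, up to 6 called genes of each list by smallest p, and the 4 closest to SCARA3. Lists with no called gene gave those of smallest p, and marker lists also their most abundant genes. LRP1, NPC1, THY1, COL3A1, ACTA2, RGS5, PPARG, PDZK1, ABCA1, APOE and FTH1 were added after their values were seen. SERPINA1, FGB, APOA1, APOA2, TYROBP, AIF1, PECAM1, LYVE1, ERG and MASP2 were also named outside this rule. Some genes that the rule names are not reported here. Members and lists were chosen with earlier results of these data known, and the lists are not independent evidence. With 8651 reads SCARA3 is measured far more precisely than CD36 with 28.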

Additional observations from a re-analysis of the deposited data

How the results depend on the processing

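Requiring an adjusted p under 0.001 and a change of at least 2-fold left 1 member that rose, SCARA3, and 0 that fell in the authors' deposited table; a threshold of 0.01, no low-mean filter, or adjustment over features with a mean of at least 20 kept 2 that rose and 1 that fell. In the lists, the threshold of 0.01 took the genes that fell to 0 among other scavenger receptors, 1 in lipoprotein transport, 0 among lysosomal proteins and 2 in fatty acid uptake and PPAR. With limma on recovered reads SCARA5 had -0.46 (adjusted p = 0.0322 over 2905 features) and passed, whereas SCARF2 had -0.38 (adjusted p = 0.189) and did not. That fit called 1143 of the 2905 features, so nothing is read from the pass of SCARA5. The log2 ratio of recovered CD36 counts was 0.69 with a pseudocount of 1 and 0.75 with 0.5. Leaving out each library in turn gave log2 ratios of 2.04 to 2.07 for SCARA3, 0.64 to 0.76 for OLR1, -0.26 to -0.21 for SCARB1, -0.52 to -0.38 for SCARA5, -0.21 to -0.10 for SCARB2, -0.57 to -0.20 for SCARF2 and 0.57 to 0.82 for CD36. For SCARF1 the range was -0.17, without the first siNC library, to 1.89, without the second, so its direction rests on 1 library. Per kilobase of all exon bases, a scale chosen after seeing the data, SCARA3 ranked 2 in siHOTAIR and 3 in siNC, OLR1 ranked 3 in siHOTAIR, SCARB2 ranked 4 in siNC, and SCARF1 ranked 7 and CD36 ranked 8 in both groups. No paired analysis was possible because the recovered libraries carry no replicate number. Depth limits CD36 and SCARF1, with 28 and 37 reads.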
